A study of Mus musculus with 12 samples.

Results

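Fos, Fosb, Fosl1, Fosl2, Jun, Junb, Jund, Atf3 and Egr1 are 9 genes of the AP-1 and immediate early response, and they were followed here through tumourspheres of 2 metastatic mouse mammary cancer lines and of their Nfib knockout pools. They were chosen by name, as 4 Fos-family genes, 3 Jun-family genes and 2 further early factors, and found by Ensembl identifier among the 18278 genes of every count file. All 9 were present and all 9 passed the filter on low counts. LM1 and LM9 were both established from metastases in the lung, which formed after piggyBac transposon mutagenesis of HR1, a non-metastatic line from a mouse mammary tumour with mutant PIK3CA. In the LM1KO and LM9KO groups Nfib, the gene of a nuclear factor I transcription factor, had been targeted with CRISPR-Cas9, and each of these groups was a pool grown from single-cell clones. Per the study's methods, cells of all 4 groups were grown for 6 days in ultra-low attachment plates, from 10000 cells per mL. The medium was supplemented with B27 and with EGF and basic FGF at 20 ng/ml each. The spheres were taken apart with trypsin before the cells were collected. There were 3 libraries in each group, and the LM1 and LM9 libraries are called parental.

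AP-1 is a DNA-binding dimer of basic leucine zipper proteins. Jun proteins can pair with each other or with a Fos protein, whereas Fos proteins need a Jun partner. Most of these genes are induced within minutes by growth factor or stress signals that pass through MAP kinases, and the make-up of the dimer changes as the early, unstable members give way to later ones. Fosl1, which encodes FRA1, is known for its high level in mesenchymal and invasive mammary cancer cells. ATF3 is a stress-induced basic leucine zipper factor that also pairs with Jun proteins, and EGR1 is a zinc finger factor of the same early response.

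The promoters were searched for short elements of kinds known to be bound by this family or to switch on some of its members. RefSeq (GRCm38.p6, the assembly of the count files) gave a promoter for 7 of the 9 genes, and the 250 bases before the start of transcription were searched on both strands. Fosl1 and Egr1 were not matched. The Fos sequence is shown for its CRE-like element TGACGTA, 66 to 60 bases before the start, and its TATA box TATAAA, 33 to 28 bases before it (chr12:85473640-85473889, plus strand). The Jun sequence is shown for its pair of AP-1 variant elements, TTACCTCA at 164 to 157 and TGACATCA at 45 to 38 bases before the start (chr4:95052223-95052472, minus strand). The Atf3 sequence is shown because it holds the letters of the Fos CRE-like element on the opposite strand, 9 to 3 bases before the start (chr1:191183334-191183583, minus strand). That start lies inside the gene (chr1:191170296-191218039), so the window is not the one before its outermost annotated start. The Fosb sequence is shown for an EGR element, GCGGGGGCG, 50 to 42 bases before the start (chr7:19310046-19310295, minus strand). Each is printed 5′ to 3′ along its gene, with these elements in capitals.
Fos: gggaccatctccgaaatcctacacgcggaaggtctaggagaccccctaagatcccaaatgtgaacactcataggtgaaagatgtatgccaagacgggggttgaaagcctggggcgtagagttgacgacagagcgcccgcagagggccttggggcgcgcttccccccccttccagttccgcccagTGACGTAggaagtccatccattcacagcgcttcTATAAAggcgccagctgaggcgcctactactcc
Jun: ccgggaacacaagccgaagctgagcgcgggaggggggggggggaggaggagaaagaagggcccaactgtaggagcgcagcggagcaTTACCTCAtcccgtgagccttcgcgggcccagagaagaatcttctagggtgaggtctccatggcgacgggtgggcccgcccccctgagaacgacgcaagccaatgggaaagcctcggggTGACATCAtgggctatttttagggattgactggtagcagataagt
Atf3: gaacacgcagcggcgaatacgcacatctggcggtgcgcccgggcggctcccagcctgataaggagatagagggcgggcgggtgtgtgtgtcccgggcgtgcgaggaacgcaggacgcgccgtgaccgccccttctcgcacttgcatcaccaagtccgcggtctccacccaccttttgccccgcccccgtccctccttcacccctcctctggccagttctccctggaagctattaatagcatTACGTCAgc
Fosb: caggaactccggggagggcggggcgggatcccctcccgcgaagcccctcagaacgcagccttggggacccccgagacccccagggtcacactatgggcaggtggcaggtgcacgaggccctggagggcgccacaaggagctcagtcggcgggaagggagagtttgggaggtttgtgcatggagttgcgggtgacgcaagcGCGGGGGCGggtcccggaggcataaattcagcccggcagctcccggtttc

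Among 32851 promoters searched over the same length, TGACGTA was in 1.08%, TATAAA in 12.4%, TTACCTCA in 0.728%, TGACATCA in 2.93% and GCGGGGGCG in 2.57%. TATAAA was found among the 7 members in Fos, and GCGGGGGCG in Fosb and in Fosl2, there 79 to 71 bases before the start. The canonical AP-1 site TGACTCA (4.46% of all promoters), the full cyclic AMP response element TGACGTCA (1.55%), the CArG box of SRF (1.47%) and the nuclear factor I palindrome, TTGGC and GCCAA with 5 bases between (0.0365%), matched none of the 7 windows. These matches describe letters in a window and were not tied to the counts.

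Library totals ran from 29249075 to 37162594 counts over the 12 libraries, and 18176 genes were tested. Levels are given as CPM, read counts scaled to library depth with TMM factors, or as CPM per kb of exon where genes are compared with each other. The threshold for a change was an adjusted p under 0.05 (limma-voom, Benjamini-Hochberg over all genes tested). The labels do not say whether the 3 libraries of a group came from separate cultures, so p-values measure the spread between these libraries, which may be technical. In bulk RNA, fewer cells that express a gene and less RNA per cell cannot be told apart.

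Several facts about the libraries touch every result below. Nfib mRNA did not drop with the knockout label: it was at 196 to 241 CPM in LM1 and 228 to 239 CPM in LM1KO, and at 120 to 210 CPM in LM9 and 227 to 247 CPM in LM9KO. Counts over whole exons do not show whether a transcript carries a frameshift. The study's methods state that the single-cell clones were screened by immunoblotting before pooling, and protein cannot be seen in these counts. LM1KO and LM9KO below therefore mean the libraries labelled so, and every direction rests on those labels. LM9 replicate 1 stood with LM1: its log2 profile over all genes correlated with those of the LM1 libraries at 0.9951 to 0.9955 and with LM9 replicates 2 and 3 at 0.968 to 0.9703, so LM9 values of the 9 genes are given with and without it. The defining epithelial genes Krt8, Krt18, Cdh1 and Epcam were at 213, 480, 11.3 and 54.6 CPM on average in LM1, and each was under 1 CPM in both knockout-labelled groups. The basal keratin gene Krt14 went the other way, from 0.0584 and 0.145 CPM in LM1 and LM9 to 6.79 and 6.51 CPM in LM1KO and LM9KO, and made up most of the sum there. The 5 measured of 6 epithelial markers summed to 730 to 779 CPM in LM1 and 776 to 1280 CPM in LM9, against 7.48 to 7.55 CPM in LM1KO and 6.76 to 7.55 CPM in LM9KO. The 5 fibroblast markers, led by Col1a1, summed to 293 to 311 CPM in LM1 and 174 to 288 CPM in LM9, against 1350 to 1380 CPM in LM1KO and 1290 to 1350 CPM in LM9KO. Col1a1 carried most of that gap (6.10 and 3.25 CPM against 958 and 899 CPM), while Dcn, the gene of decorin, had lower means in the knockout-labelled groups (90.7 and 38.4 CPM against 11.5 and 12.3 CPM). The 3 measured of 4 endothelial markers, led by Cdh5, summed to 0.867 to 0.957 CPM in LM1 and 0.54 to 2.64 CPM in LM9. Their sums were 90.3 to 92.5 CPM in LM1KO and 85.6 to 89.7 CPM in LM9KO. That gap lay in Cdh5 and Vwf. Mean Pecam1 was 0.314 CPM in LM1, 0.433 in LM1KO, 0.88 in LM9 and 0.332 in LM9KO. The 2 measured of 5 immune markers, Cd68 and Cd14, summed to 505 to 517 CPM in LM1, 519 to 593 CPM in LM9, 117 to 122 CPM in LM1KO and 114 to 123 CPM in LM9KO, and Ptprc, Cd3e and Adgre1 were not listed. The part of these marker differences in the results below was not tested.

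The first comparison asks which of the factors differed between each line and its knockout-labelled counterpart. Fosl1 and Egr1 were higher, and Fos, Jun and Jund were lower, in the knockout-labelled libraries of both lines. Fosl2 fell in LM1KO, and its LM9 value did not pass, while Fosb and Junb fell in LM9KO and their LM1 values did not pass. These calls depended on which libraries were in the fit. In a fit of LM1 and LM1KO alone all 9 members passed for LM1, 3 higher and 6 lower, beside 89.4% of genes (limma-voom adjusted p = 0.00521 for Fosb and 0.0146 for Junb), and Fosl2 passed in LM9KO without LM9 replicate 2 (-0.58, limma-voom adjusted p = 0.0494). Atf3 passed in neither line in the limma-voom fit of all 12 libraries, but its LM1 value lay at the threshold. Whether the lines differed is taken up after the members. In LM1KO against LM1, 6 of 9 members passed, 2 higher and 4 lower, beside 81.2% of all genes tested. In LM9KO against LM9, 7 of 9 passed, 2 higher and 5 lower, beside 82.3% of all genes. Averaged over both lines, 8 of 9 passed, 2 higher and 6 lower, beside 86.8% of all genes, 46.3% higher and 40.5% lower. The counts of members called were thus close to what the whole table gave, and the sizes and directions carry the description.

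**Figure D1:**
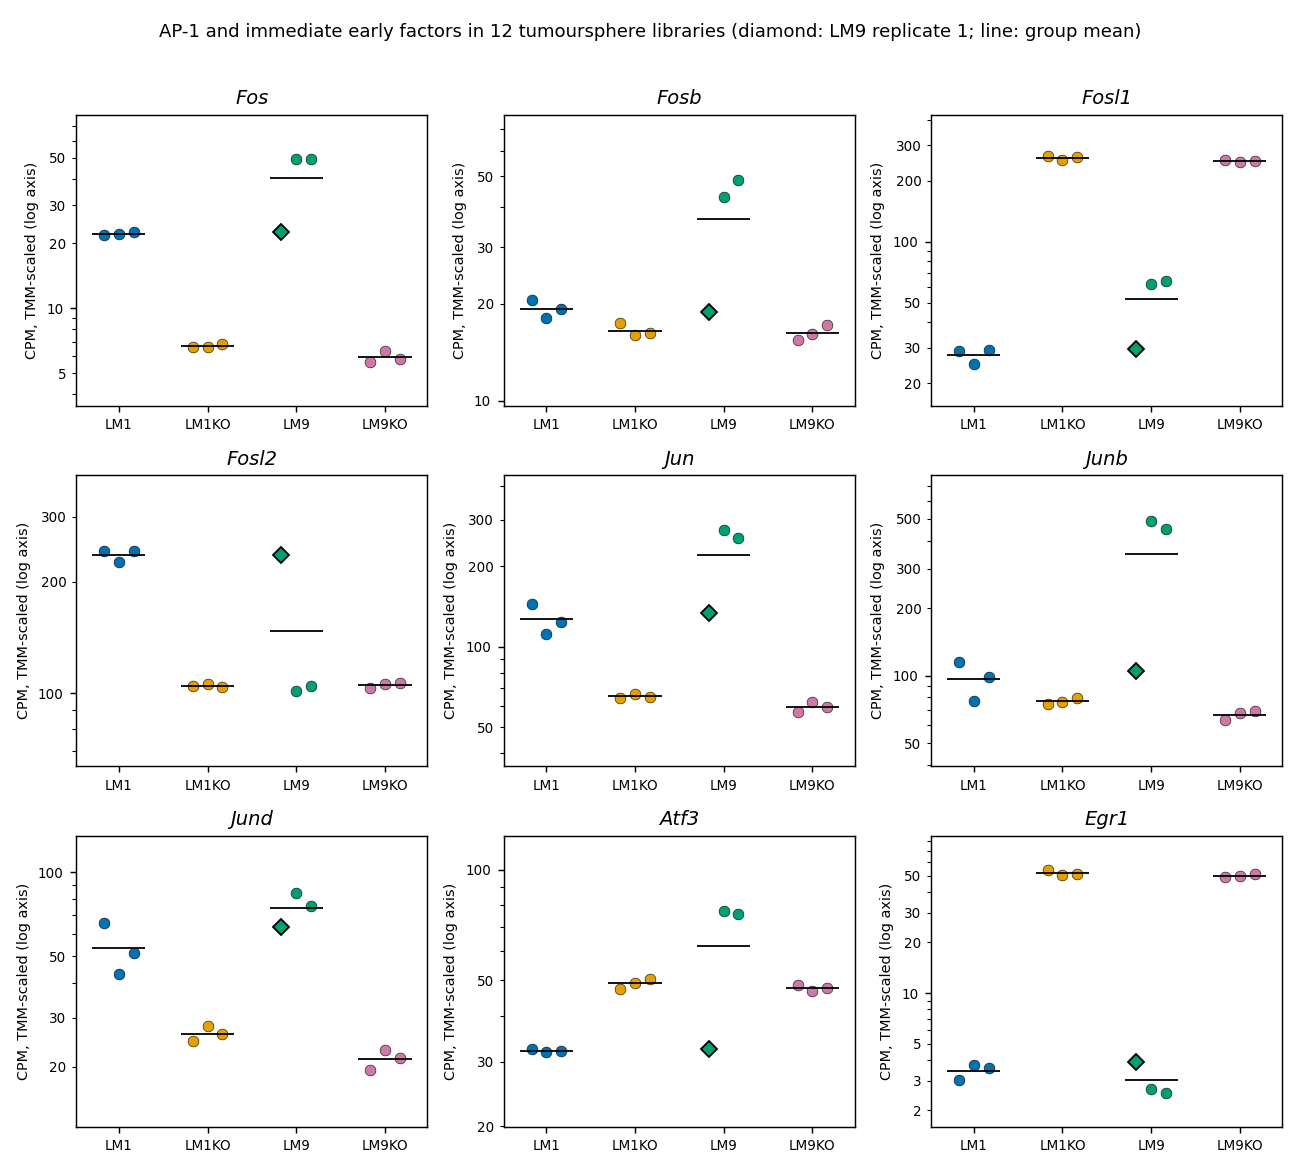
Level of each of the 9 genes in the 12 libraries, in TMM-scaled CPM on a log axis that does not start at 0, with points for libraries, a line for each group mean and a diamond for LM9 replicate 1. Fosl1 and Egr1 are high in all 6 knockout-labelled libraries (249.4 to 265.6 and 49.1 to 53.9 CPM), and LM9 replicate 1 lies beside the LM1 libraries rather than the other two of LM9 for most genes.

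Fos, the prototype early gene of the family (ENSMUSG00000021250, chr12:85473890-85477273, plus strand), was at 21.8, 22.1 and 22.6 CPM in LM1 and at 6.60, 6.64 and 6.84 CPM in LM1KO. In LM9 it was at 22.7, 49.0 and 49.4 CPM, and in LM9KO at 5.65, 6.32 and 5.80 CPM. All 6 parental libraries lay above all 6 knockout-labelled ones, and LM9 replicate 1 lay at the LM1 level. Fos was 3.31-fold lower in LM1KO (log2 fold change -1.73, SE 0.29, limma-voom adjusted p = 0.000192). It was 6.82-fold lower in LM9KO (-2.67, SE 0.29, limma-voom adjusted p = 4.61e-06), and 8.31-fold lower without LM9 replicate 1 (-3.05, SE 0.06).

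Fosb, which like Fos is transient and carries a transactivation domain (ENSMUSG00000003545, chr7:19302696-19310051, minus strand), was at 20.6, 18.2 and 19.3 CPM in LM1 and at 17.4, 15.96 and 16.2 CPM in LM1KO. The LM9 libraries had 18.9, 43.1 and 48.5 CPM and the LM9KO libraries 15.4, 16.2 and 17.2 CPM. The groups did not overlap in either line, but the gap in LM1 was small. The log2 fold change was -0.22 in LM1 (95% interval -0.87 to 0.42, limma-voom adjusted p = 0.499) and -1.05 in LM9 (SE 0.28, limma-voom adjusted p = 0.00445). Leaving out LM9 replicate 1, these values were -0.22 and -1.49, and both passed (limma-voom adjusted p = 0.00729 and 9.64e-13).

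Fosl1, whose protein FRA1 lacks the transactivation domain of FOS (ENSMUSG00000024912, chr19:5447547-5455946, plus strand), was at 28.9, 24.7 and 29.1 CPM in LM1 and at 265.6, 254.3 and 262.5 CPM in LM1KO. It was at 29.6, 62.1 and 63.9 CPM in LM9 and at 253.6, 249.4 and 249.9 CPM in LM9KO. Every knockout-labelled library lay above every parental one, and the 6 knockout-labelled values spanned 249.4 to 265.6 CPM. Fosl1 was 9.46-fold higher in LM1KO (log2 fold change 3.25, SE 0.23, limma-voom adjusted p = 8.90e-08). In LM9KO it was 4.84-fold higher (2.37, SE 0.22, limma-voom adjusted p = 9.17e-07), and 3.98-fold higher without LM9 replicate 1 (2.00, SE 0.05). The exons of Fosl1 share 1163 bases with those of Ccdc85b on the opposite strand, of 2033 exonic bases in all. Ccdc85b went the other way, from 454 to 1286 counts in the parental libraries to 57 to 82 in the knockout-labelled ones, where Fosl1 had 9615 to 10553. Whether the counting used strand was not given in the sources used here. At most 82 reads per knockout-labelled library can have been counted for both genes, since Ccdc85b had no more there. The parental Fosl1 level was 805 to 1624 counts.

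Fosl2, which encodes FRA2 (ENSMUSG00000029135, chr5:32135801-32157842, plus strand), was at 242, 226 and 242 CPM in LM1 and at 105, 106 and 104 CPM in LM1KO. In LM9 it was at 236, 102 and 104 CPM, and in LM9KO at 103, 106 and 107 CPM. LM9 replicates 2 and 3 thus lay beside the knockout-labelled libraries, while LM9 replicate 1 lay among those of LM1. Fosl2 was 2.26-fold lower in LM1KO (log2 fold change -1.17, SE 0.24, limma-voom adjusted p = 0.000819). The LM9 value was -0.37 (95% interval -0.91 to 0.17, limma-voom adjusted p = 0.178), and without LM9 replicate 1 it was 0.04 (95% interval -0.05 to 0.12, limma-voom adjusted p = 0.412).

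Jun, the main Fos partner and a strong activator (ENSMUSG00000052684, chr4:95049034-95052222, minus strand), was at 145, 111 and 124 CPM in LM1 and at 64.0, 66.6 and 65.0 CPM in LM1KO. The LM9 values were 134, 275 and 255 CPM and the LM9KO values 57.0, 62.2 and 59.6 CPM. No knockout-labelled library reached the lowest parental one. Jun was 1.94-fold lower in LM1KO (log2 fold change -0.95, SE 0.22, limma-voom adjusted p = 0.00205) and 3.71-fold lower in LM9KO (-1.82, SE 0.22, limma-voom adjusted p = 1.21e-05). The LM9 value was -2.15 (SE 0.07) without LM9 replicate 1. Jun shares 232 exonic bases with the antisense gene Junos, which had 36 to 89 counts over the 12 libraries.

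Junb, a weaker activator that can hold back Jun (ENSMUSG00000052837, chr8:84974484-84978718, minus strand), was at 116, 77.2 and 98.3 CPM in LM1 and at 75.1, 76.0 and 79.3 CPM in LM1KO. It was at 105, 489 and 452 CPM in LM9 and at 63.2, 68.0 and 69.8 CPM in LM9KO. The LM1 and LM1KO libraries overlapped, and LM9 replicates 2 and 3 stood far above the other 10 libraries. The LM1 value was -0.32 (95% interval -1.36 to 0.73, limma-voom adjusted p = 0.552). Leaving out LM9 replicate 1, whose spread enters the shared error, it was -0.31 and passed (SE 0.10, limma-voom adjusted p = 0.00617). In LM9KO Junb was 5.20-fold lower (-2.09, SE 0.46, limma-voom adjusted p = 0.00139), and 7.02-fold lower without that library (-2.81, SE 0.09). Junb shares 173 exonic bases with Prdx2, which lies on the other strand and was at 176 to 192 CPM in the parental libraries and 79.0 to 83.7 CPM in the knockout-labelled ones.

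Jund, the Jun gene that most cells transcribe constantly (ENSMUSG00000071076, chr8:70698949-70700616, plus strand), was at 65.9, 43.2 and 51.4 CPM in LM1 and at 24.9, 28.0 and 26.2 CPM in LM1KO. In LM9 it was at 63.9, 84.5 and 75.6 CPM, and in LM9KO at 19.5, 23.0 and 21.6 CPM. The 6 parental libraries all lay above the 6 knockout-labelled ones. Jund was 2.03-fold lower in LM1KO (log2 fold change -0.997, SE 0.15, limma-voom adjusted p = 7.61e-05) and 3.49-fold lower in LM9KO (-1.79, SE 0.15, limma-voom adjusted p = 4.95e-07), or -1.90 (SE 0.12) without LM9 replicate 1. The antisense gene Gm11175 covers 877 of its exonic bases and had 6 to 11 counts.

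Atf3, the stress-induced factor (ENSMUSG00000026628, chr1:191170296-191218039, minus strand), was at 32.4, 31.9 and 32.1 CPM in LM1 and at 47.3, 49.2 and 50.5 CPM in LM1KO. It was at 32.5, 77.4 and 75.7 CPM in LM9 and at 48.4, 46.7 and 47.7 CPM in LM9KO. The knockout-labelled libraries thus lay above LM1 and LM9 replicate 1 and below LM9 replicates 2 and 3. The log2 fold change was 0.61 in LM1 (95% interval 0.03 to 1.19, limma-voom adjusted p = 0.0502) and -0.26 in LM9 (95% interval -0.82 to 0.29, limma-voom adjusted p = 0.349). The LM1 value lay on the other side of the threshold in several fits: with edgeR (adjusted p = 0.0363), DESeq2 (adjusted p = 0.0208), library totals (limma-voom adjusted p = 0.00482) and median-ratio factors (limma-voom adjusted p = 0.0474). When LM9 replicate 1 was left out, Atf3 rose by 0.61 in LM1KO and fell by 0.68 in LM9KO (limma-voom adjusted p = 2.10e-10 and 5.66e-11). With library totals in place of TMM factors, the LM9 value was 0.08.

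Egr1, which binds GC-rich promoters and not the AP-1 site (ENSMUSG00000038418, chr18:34859823-34864984, plus strand), was at 3.05, 3.71 and 3.58 CPM in LM1 and at 53.9, 50.4 and 51.3 CPM in LM1KO. The LM9 libraries had 3.88, 2.70 and 2.56 CPM and the LM9KO libraries 49.1, 49.5 and 51.2 CPM. Parental libraries held 65 to 121 counts of it and knockout-labelled ones 1892 to 2140, so the gap was far beyond the spread in either line. Egr1 was 15-fold higher in LM1KO (log2 fold change 3.91, SE 0.12, limma-voom adjusted p = 1.38e-10). In LM9KO it was 16.4-fold higher (4.04, SE 0.13, limma-voom adjusted p = 1.79e-10), and 19.0-fold higher without LM9 replicate 1 (4.24, SE 0.14).

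**Figure D2:**
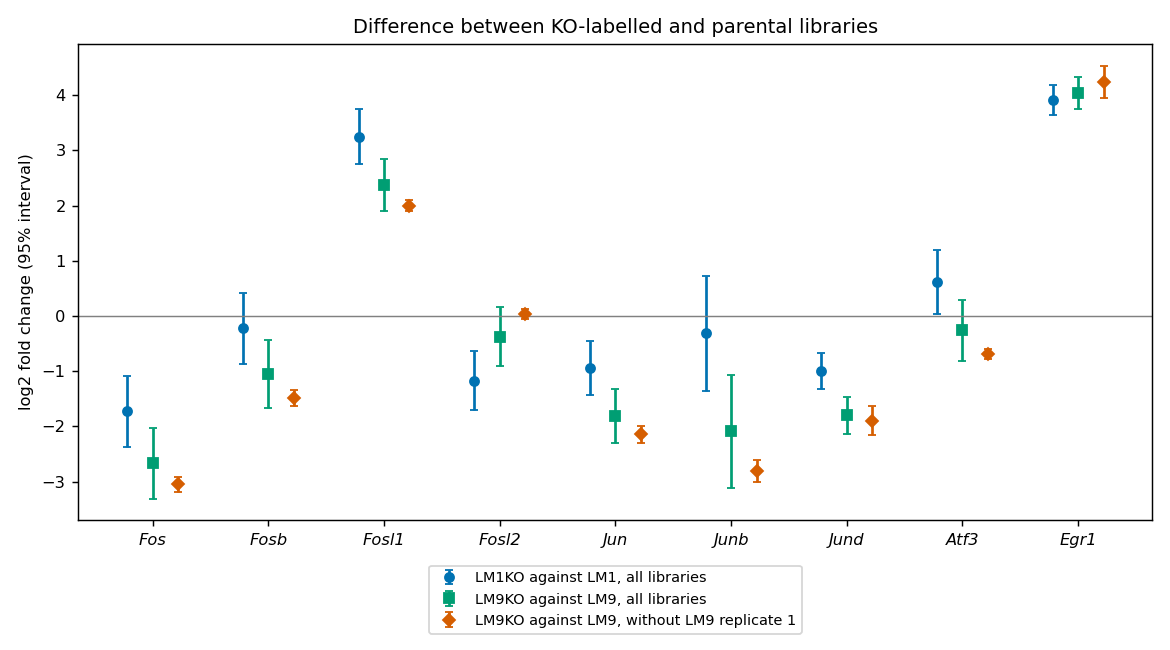
Difference of each gene between knockout-labelled and parental libraries as a log2 fold change with its 95% interval (limma-voom), for LM1 with all libraries, for LM9 with all libraries and for LM9 without replicate 1. Egr1 and Fosl1 lie above 0 (3.91 and 3.25 in LM1), Fos, Jun and Jund below it in both lines, and the LM9 intervals of all genes but Egr1 narrow when replicate 1 is left out.

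Averaged over both lines, the order of the differences ran from Egr1 at 3.97 (SE 0.09) and Fosl1 at 2.81 (SE 0.16), through Atf3 at 0.17 (SE 0.18), Fosb at -0.64 (SE 0.20), Fosl2 at -0.77 (SE 0.17), Junb at -1.20 (SE 0.33), Jun at -1.38 (SE 0.16) and Jund at -1.40 (SE 0.11), to Fos at -2.20 (SE 0.21). Neighbours from Junb to Jund in that order lay within one SE of Junb. Without LM9 replicate 1 the values were 4.07 for Egr1, 2.63 for Fosl1, -0.04 for Atf3, -0.85 for Fosb, -0.57 for Fosl2, -1.56 for Junb, -1.54 for Jun, -1.45 for Jund and -2.39 for Fos. The averaged Fosb value did not pass with library totals in place of TMM factors (-0.36, limma-voom adjusted p = 0.0729), and the Atf3 value then passed (0.46, limma-voom adjusted p = 0.0158). That scaling moved the median over all genes from 0.11 to 0.40 on the log2 scale.

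The next comparison asks whether the difference between parental and knockout-labelled libraries was itself unequal in the 2 lines. With all 12 libraries no gene of 18176 passed (limma-voom, 4495 genes at an unadjusted p under 0.05), so 0 of 9 members passed beside 0% of all genes. The edgeR quasi-likelihood test called 1 gene and DESeq2 70 genes, none of them a member. Without LM9 replicate 1, 8 of 9 members passed beside 57.2% of genes, all but Egr1 (-0.33, SE 0.17, limma-voom adjusted p = 0.1004). The largest of these was Junb, whose log2 fold change was higher by 2.50 in LM1 than in LM9 (SE 0.13). Fos, Fosb, Fosl1, Jun, Jund and Atf3 differed by 1.32, 1.27, 1.26, 1.20, 0.91 and 1.30 in the same direction, and Fosl2 by -1.21. Whether the lines differed in these responses therefore rested on 1 library.

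The parental lines were compared with each other in the same way. With all libraries 0 of 9 members passed beside 0.0055% of genes (limma-voom; 8661 genes at an unadjusted p under 0.05). This count turned on the setting even with every library kept: DESeq2 called 8 members beside 31.8% of genes, and limma-voom called 8 beside 39.4% when a mean of at least 5 CPM was required and 6 beside 28.8% with library totals. The limma-voom adjusted p was 0.0543 for Fos, Fosl1, Fosl2, Jun, Junb, Jund and Atf3. All 9 passed without LM9 replicate 1, beside 65.7% of genes. LM9 replicates 2 and 3 were then above LM1 by 4.85-fold for Junb (log2 difference of LM1 against LM9 -2.30, SE 0.09), 2.38-fold for Atf3, 2.37-fold for Fosb, 2.28-fold for Fosl1, 2.22-fold for Fos and 2.09-fold for Jun. Jund differed less (log2 difference -0.61, SE 0.11). Fosl2 went the other way and was 2.30-fold higher in LM1 (1.20, SE 0.04), and Egr1 was 1.31-fold higher in LM1 (0.39, SE 0.16, limma-voom adjusted p = 0.0453). The dependence on LM9 replicate 1 was visible in single values: for Fosl1 that library had 29.6 CPM, against 24.7 to 29.1 CPM in LM1 and 62.1 and 63.9 CPM in the other LM9 libraries.

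Between the knockout-labelled groups no member differed past the threshold. That is, 0 of 9 passed in LM1KO against LM9KO, beside 0% of genes (limma-voom, 178 genes at an unadjusted p under 0.05, and 0 genes by edgeR and by DESeq2). The widest log2 difference was that of Jund, 0.30 (95% interval -0.05 to 0.65), and the narrowest interval was that of Egr1, 0.05 (95% interval -0.11 to 0.22). For Fosl1 the interval was -0.38 to 0.49 and for Fosl2 it was -0.55 to 0.53. For Fos, Fosl1, Jun, Junb and Jund the values of the 3 LM1KO libraries all lay above those of LM9KO. The gap was narrow for Fosl1, 254.3 against 253.6 CPM at the nearest. The share of all genes separated in this way was not counted, so no difference is read from it.

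Family composition was then compared, since levels of different genes can be set against each other only per length. Each gene's CPM was divided by the length of its exon union, and its share of the summed Fos-family or Jun-family level was taken in every library. Per kb of exon, Fosl2 made up the largest part of the Fos family in LM1, Fosl1 did in LM9 replicates 2 and 3, and in the knockout-labelled libraries Fosl1 made up nearly all of it. Fosl1 had 27.4%, 25.4% and 27.5% of the Fos-family level in LM1 and 28.2%, 44.4% and 44.3% in LM9. It had 88.9%, 88.4% and 88.8% in LM1KO and 88.9%, 88.3% and 88.3% in LM9KO. The share was thus at least 88.3% in each of the 6 knockout-labelled libraries and at most 44.4% in each of the 6 parental ones. Without division by length it was at least 65.8% and at most 24.2%, and Fosl2, at 39.8% and 39.2%, then had more than Fosl1 in LM9 replicates 2 and 3.

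Averaged over the lines, the Fosl1 share was 55.7 percentage points higher in the knockout-labelled libraries (exact permutation p = 0.005, two-sided, labels exchanged within each line). That p is the smallest that the 400 arrangements allow, and it was 0.008 after Benjamini-Hochberg adjustment over the 8 composition measures. The Fosl2 share went from 48.4% ± 0.422 (SD, n = 3) in LM1 to 7.49% ± 0.225 in LM1KO, and from 25.9% ± 18.5 in LM9 to 7.81% ± 0.172 in LM9KO, an averaged fall of 29.5 points. The Fos share went from 18.7% ± 0.878 to 1.97% ± 0.0528 in LM1KO and from 26.2% ± 6.51 to 1.81% ± 0.116 in LM9KO, and the averaged difference was -20.6 points, or -9.50 points when CPM were not divided by length. The Fosb share was 6.13% ± 0.218 in LM1, 1.83% ± 0.0585 in LM1KO, 8.95% ± 2.71 in LM9 and 1.87% ± 0.11 in LM9KO, and the averaged difference was -5.69 points. Each of these 3 falls also had the smallest exact permutation p of 0.005, but shares sum to a fixed total, so they are not separate from the Fosl1 difference. When any 1 LM9KO library was left out, the exact permutation p was 0.015 for the Fosl2 share and 0.01 for the Fosb share. Within 1 line, 3 libraries against 3 cannot give an exact p under 0.1, and all 4 shares had that value in both lines. In LM9 replicates 2 and 3 the shares were 44.3% for Fosl1, 30.0% for Fos, 15.2% for Fosl2 and 10.5% for Fosb, and without replicate 1 the averaged Fosl1 difference was 53.05 points. In level, Fos fell as well as in share. The Fosb level was 3.10 CPM per kb in LM1 and 2.65 in LM1KO, a difference that did not pass when all libraries were fitted, and the knockout-labelled Fosl2 level of 10.8 CPM per kb (LM1KO) and 10.9 CPM per kb (LM9KO) was near the 10.65 CPM per kb of LM9 replicates 2 and 3.

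**Figure D3:**
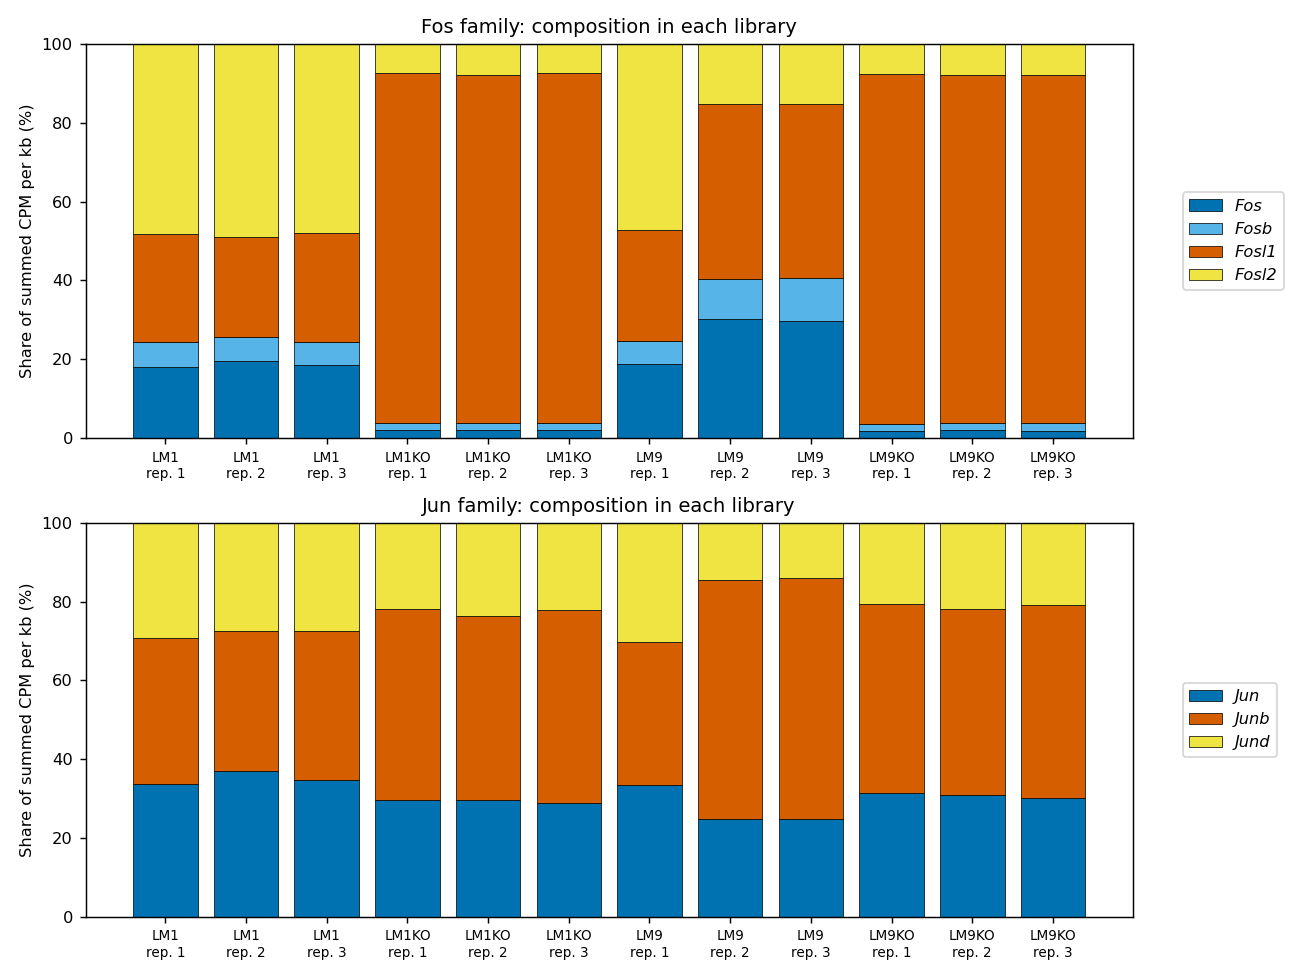
Share of each gene in the summed level (CPM per kb of exon) of the Fos family, upper bars, and of the Jun family, lower bars, in each of the 12 libraries, in percent. Fosl1 fills 88.3% to 88.9% of the Fos bars of the 6 knockout-labelled libraries, while the Jun bars change less and LM9 replicates 2 and 3 differ from LM9 replicate 1.

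In the Jun family none of the averaged share differences passed. Junb had the largest mean share in each group: 48.0% ± 1.12 in LM1KO, 48.0% ± 0.966 in LM9KO and 52.7% ± 14.3 in LM9. In LM1 it was at 36.9% ± 1.25, close to Jun at 35.1% ± 1.75. The averaged differences were 3.19 points for Junb, -1.22 for Jun and -1.96 for Jund (exact permutation p = 0.63, 0.545 and 0.565, two-sided). The Junb share was higher in all 3 LM1KO libraries than in LM1, by 11.03 points on average (exact permutation p = 0.1, the smallest possible). The LM9 differences were -4.66 points for Junb, 3.23 for Jun and 1.42 for Jund (exact permutation p = 0.5, 0.4 and 1). Without LM9 replicate 1 they were -12.9, 6.11 and 6.81 points, each with an exact permutation p of 0.1, the smallest possible, and without LM9 replicate 2 they were -0.59, 1.76 and -1.17 points. In LM9 Junb was at 36.2% in replicate 1 and 60.8% and 61.1% in the others, against 47.0% to 48.9% in LM9KO. Jun was at 33.6% to 37.0% in LM1, 28.9% to 29.7% in LM1KO and 30.2% to 31.3% in LM9KO. Without LM9 replicate 1 the averaged differences were -0.95 points for Junb, 0.21 for Jun and 0.73 for Jund, so their directions rested on that library.

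Summed levels moved in opposite directions in the 2 families. The Fos-family sum was 50.6 ± 2.34 CPM per kb in LM1 and 63.8 ± 10.6 in LM9, against 144.6 ± 2.89 in LM1KO and 139.5 ± 0.736 in LM9KO (SD, n = 3). The Jun-family sum was 114 ± 20.5 CPM per kb in LM1 and 266 ± 122 in LM9, against 69.6 ± 1.74 in LM1KO and 60.6 ± 3.16 in LM9KO. Per kb, the Jun sum was the larger of the pair in the 6 parental libraries and the Fos sum in the 6 knockout-labelled ones. Without division by length the Fos sum was larger in the 6 knockout-labelled libraries too, but also in LM1 replicates 2 and 3 (291 and 313 CPM against 232 and 274 for Jun) and in LM9 replicate 1 (307 against 302 CPM). The log2 ratio of Fos-family to Jun-family level was -1.16 ± 0.206 in LM1, 1.06 ± 0.0612 in LM1KO, -1.94 ± 0.571 in LM9 and 1.20 ± 0.0838 in LM9KO. The averaged difference was 2.68 (exact permutation p = 0.005, the smallest possible), and 2.84 without LM9 replicate 1. It was 1.75 without division by length (exact permutation p = 0.005). These are mRNA levels, and dimers were not measured.

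The other basic leucine zipper genes that can pair with these factors were mixed. Of 12 measured genes of a list of 13, 3 were higher and 6 lower in the averaged comparison, with a median log2 fold change of -0.35, beside 46.3% higher and 40.5% lower of all 18176 genes and a median of 0.11. Maf, a large Maf factor, rose by 3.32 and Batf2 by 2.18 (limma-voom adjusted p = 1.50e-07 and 4.44e-06), the latter at no more than 44 counts in a library. Batf, a Jun partner known from lymphocytes, was at 1.61 CPM in LM1 and 1.36 in LM9 but at 0.008 and 0 CPM in the knockout-labelled groups, where a fitted fold depends on the offset, and it passed (limma-voom adjusted p = 1.51e-10). Its relative Batf3 fell by 2.34 and the small Maf factor Maff by 1.76, from 121 CPM in LM1 and 205 in LM9 to 46.9 and 44.2 CPM. Without LM9 replicate 1 the counts were 4 higher and 8 lower, and with library totals 5 higher and 6 lower. All genes gave 48.9% higher and 43.0% lower without that library, and 52.8% higher and 33.6% lower with library totals.

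Other immediate early genes were also counted. Of 27 measured of 28, 6 were higher and 19 lower, with a median of -0.58, beside the 46.3% and 40.5% of all genes. The falls were led by Zfp36l1, a destabiliser of early mRNAs, at -4.20 (SE 0.18, limma-voom adjusted p = 6.02e-10), from 350 CPM in LM1 and 236 in LM9 to 15.2 CPM in LM1KO and 15.3 in LM9KO. Nr4a1, an orphan nuclear receptor induced with Fos, fell by 3.79 (SE 0.40), from 79.9 CPM in LM1 and 265 in LM9 (357 in replicates 2 and 3) to 9.67 and 9.32 CPM. Ccn1, a secreted matricellular protein, fell by 3.44 (SE 0.06), from 431 and 498 CPM to 42.8 and 42.2 CPM. The rises were led by Arc at 4.13 (SE 0.12), a neuronal early gene that went from 1.02 and 1.39 CPM to 20.9 and 20.2 CPM, the Egr1 relative Egr3 at 1.61 (SE 0.22) and the zinc finger factor Klf4 at 1.05 (SE 0.18). With library totals 6 were higher and 13 lower, and without LM9 replicate 1, 6 and 20.

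Among the kinases, SRF cofactors and regulators that act upstream of AP-1, 12 of 31 measured genes (of 32) were higher and 16 lower, with a median of -0.13. All genes gave 46.3% higher and 40.5% lower. Rps6ka1, which encodes the ribosomal S6 kinase RSK1 that acts below ERK, had 90.7 CPM in LM1, 104 in LM9 and 0.752 and 0.593 CPM in LM1KO and LM9KO (log2 fold change -7.16, SE 0.11, limma-voom adjusted p = 2.31e-13). Mapk13, a p38 isoform of epithelia, fell by 5.69 (SE 0.28), and Map2k6, a kinase that activates p38, fell by 4.61 (SE 0.26). The ERK kinase gene Map2k2 rose by 2.03 (SE 0.04), from 54.8 and 60.2 CPM to 240.5 and 228 CPM, the SRF coactivator gene Mrtfa rose by 1.48 (SE 0.07), and Fbxw7, which marks JUN for degradation, rose by 1.35 (SE 0.19). With library totals the list had 16 higher and 13 lower, and without LM9 replicate 1 they were 12 and 16.

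The feedback genes of the MAP kinase pathway had the lowest median of the 6 lists. Of 14 genes, 3 were higher and 10 lower, with a median of -1.31, beside 46.3% higher and 40.5% lower of all genes. Dusp6, an ERK phosphatase that is itself an ERK target, was at 172 CPM in LM1 and 181 in LM9, and at 6.19 and 5.85 CPM in LM1KO and LM9KO (log2 fold change -4.88, SE 0.09, limma-voom adjusted p = 6.40e-13). Spry1, an inhibitor of receptor signalling, fell by 3.23 (SE 0.07), and Dusp16, a phosphatase of JNK, fell by 2.21 (SE 0.05). Dusp5, a nuclear ERK phosphatase, rose by 1.69 (SE 0.13), Dusp2 by 0.75 (SE 0.28) and Spred2 by 0.69 (SE 0.17), the last 2 passing in 1 line each. The LM9 value of Dusp2 rested on LM9 replicate 1: it was 0.19 (limma-voom adjusted p = 0.625) with all libraries and -0.41 (limma-voom adjusted p = 0.0461) without that one, where the average was 0.45. The counts were 3 and 10 with library totals and also without LM9 replicate 1.

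**Figure D4:**
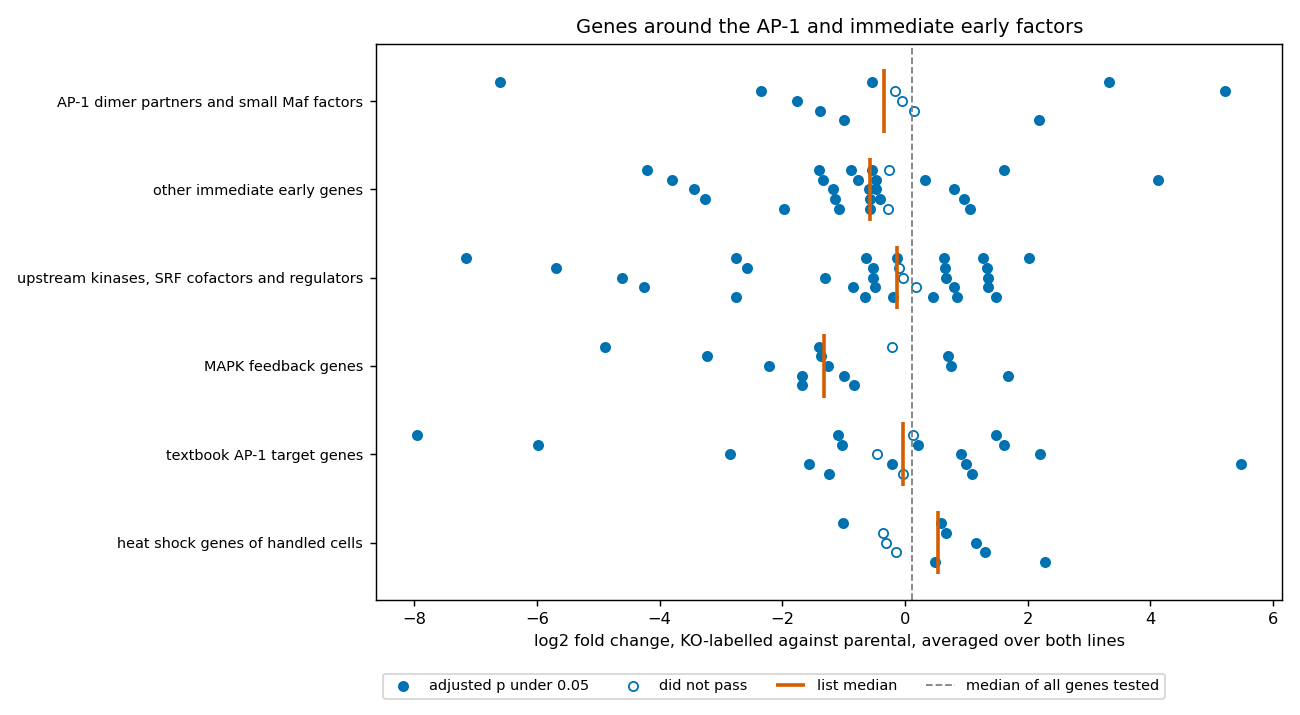
Averaged log2 fold change of knockout-labelled against parental libraries for the genes of 6 lists around AP-1, with a point for each gene, filled where the adjusted p was under 0.05, an orange line for each list median and a dashed line for the median of all genes tested (0.11). The MAPK feedback genes have the lowest median (-1.31) and the heat shock genes the highest (0.54).

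Of 19 textbook AP-1 targets, 8 were higher and 8 lower, with a median of -0.04, beside 46.3% and 40.5% of all genes. Mmp9, a matrix metalloprotease, was at 602 CPM in LM1 and 1401 in LM9 (1788 in replicates 2 and 3), and at 3.49 and 3.54 CPM in LM1KO and LM9KO (log2 fold change -7.95, SE 0.36, limma-voom adjusted p = 1.04e-09). Spp1, the gene of osteopontin, fell by 5.98 (SE 0.08), from 7394 and 9580 CPM to 129 and 135 CPM. Il1rl1, the receptor of interleukin 33, rose by 5.48 (SE 0.33) from under 1 CPM to 6.995 and 6.46 CPM. Timp1, a metalloprotease inhibitor, rose by 2.20 (SE 0.15), from 26.6 and 43.4 CPM to 152 and 151 CPM. Plaur, the urokinase receptor, rose by 1.62 (SE 0.20). The counts were 9 higher and 7 lower with library totals, and 8 and 10 when LM9 replicate 1 was left out.

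Heat shock genes were looked at because dissociation and handling are known to induce them together with Fos and Jun. Of 10 genes, 6 were higher and 1 lower in the knockout-labelled libraries, with a median of 0.54, beside 46.3% and 40.5% of all genes. Hsph1 rose by 2.28 (SE 0.23), Hspd1 by 1.30 (SE 0.10) and Dnaja1 by 1.16 (SE 0.09), while Hspa8 fell by 1.015 (SE 0.14). The inducible pair Hspa1a and Hspa1b, which share reads as near-identical copies, did not pass in the average (limma-voom adjusted p = 0.474 and 0.488), but both were lower in LM9KO (log2 fold change -1.54 and -1.33, limma-voom adjusted p = 0.0352 and 0.0445). Mean Hspa1a was 10.3, 57.7, 17.9 and 14.3 CPM in LM1, LM9, LM1KO and LM9KO, and mean Hspa1b was 60.5, 299.6, 98.8 and 88.6 CPM. LM9, whose replicates 2 and 3 had the highest Jun and Junb, thus also had the highest mean of this pair, and the part of handling was not tested. When LM9 replicate 1 was left out all 10 genes passed, beside 91.9% of all genes. Of the 10, 6 were higher and 4 lower, the 4 being Hspa8, Hspa1a (-0.83), Hspa1b (-0.75) and Hspb1 (-0.49). The pair then rose in LM1KO (0.82 and 0.73) and fell in LM9KO (by 2.48 and 2.23). With library totals the LM9KO values of the pair did not pass (limma-voom adjusted p = 0.0667 and 0.1105).

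Genes with the profile most like that of each member over the 12 libraries were found by the root mean square difference of centred log2 levels, among 10280 genes with a mean of at least 10 CPM. For Fos these were Bdkrb2, a bradykinin receptor gene, at 0.0488, and Slc25a25 at 0.0727. Bdkrb2 had means of 40.4 CPM in LM1, 12.5 in LM1KO, 73.8 in LM9 and 11.6 in LM9KO. Jun was closest to Tinagl1, at 0.0546, and Atf3 to Gm16580, at 0.0532. Fosb was closest to Map3k14, the kinase gene of the non-canonical NF-kappa-B pathway, at 0.0662, and Fosl2 to Adnp2, at 0.0641. For Fosl1 the nearest were Gm5560 (0.0813) and Pik3r5 (0.0838), a regulatory subunit gene of PI3 kinase, with means of 9.55 and 19.3 CPM in LM1 and LM9 against 97.3 and 95.1 CPM in LM1KO and LM9KO. For Egr1 they were Prep (0.0839) and Aif1l (0.109), for Jund Cotl1 (0.125), and for Junb the receptor kinase gene Epha2 (0.218), so that Junb had the least close match. The points compared share 12 libraries in 4 groups, and no test was made.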

How the data were processed

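RNA-seq counts of 12 tumoursphere libraries were used, 3 in each of the groups LM1, LM1KO, LM9 and LM9KO, as their labels give them. The authors made stranded mRNA libraries, sequenced single-end reads, aligned them to mm10 with STAR and counted 5′ read ends over the exon union of each gene with qCount of QuasR. Each library's deposited file holds raw counts, whole numbers with no normalisation; versions and the annotation release were not given in the sources used here. Genes were named and placed with GENCODE M21 (GRCm38, 18268 of 18278 identifiers matched), and coordinates are 1-based.

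Following the study's framework, limma-voom (limma 3.58.1, edgeR 4.0.16, R 4.3.3) was fitted to 18176 genes kept by filterByExpr (count minimum 10), with TMM factors, an offset of 0.5 and 1 mean per group over all 12 libraries. Tests were two-sided with Benjamini-Hochberg adjustment over all genes within each contrast. Family shares were compared by exact permutation within lines. Lists were described by counts and medians. The code was tested on simulated data. Alternatives were the edgeR quasi-likelihood test, DESeq2 1.42.0, other scaling and filters, the replicate block, fits of fewer groups, other lengths for the shares and leaving out each library.

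The 9 members, the 6 lists and all tests were chosen with earlier results of these data known. Text names all members, up to 3 largest rises and falls in each list (of genes that passed, went 1 way in LM1 and LM9, and reached 1 CPM in a group), and for each member the nearest of its 2 most similar genes or both. Some genes that this rule selects are not reported here. Nfib, the cell type markers, the overlapping neighbours and the genes Hspa1a, Hspa1b and Hspb1 were also named, the last 3 chosen after their values were seen. Depth, from 29249075 to 37162594 counts per library, limits the low genes; counting floors of 3 counts cover counting error only, since reads carried no molecular identifiers. Tumours and other cell lines of the study were not analysed here.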

Additional observations from a re-analysis of the deposited data

How the results depend on the processing

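The counts of changed genes kept within 1.5 times of the values given for LM1KO against LM1 and LM9KO against LM9 in most settings, and the averaged count was 10514 when a mean of at least 5 CPM was required, where fewer genes were tested. Leaving out libraries gave 14171 to 16161 genes for LM1KO against LM1, 14391 to 16219 for LM9KO against LM9 and 15547 to 16777 for the average. The difference between lines had 1 gene with edgeR, 70 with DESeq2 and 1 with library totals, and 0 to 10444 when 1 library was left out. LM1 against LM9 had 5772 genes with DESeq2, 5226 with library totals, 4670 with a mean of at least 5 CPM, 0 with the replicate block, 0 in a fit of only these groups and 0 to 11995 when 1 library was left out. The upper ends, 10444 and 11995, came without LM9 replicate 1. LM1KO against LM9KO had 6 genes in a fit of only these groups. The cause was not tested.

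Same-numbered libraries did not deviate together (correlations of -0.0876 to 0.0406), so the numbers were not taken as pairs. A replicate block gave 14599 genes in LM1KO against LM1, 14839 in LM9KO against LM9 and 15681 in the average. Atf3 then passed in LM1KO (adjusted p = 0.0460, limma-voom), and no other member's call changed. It also passed there with edgeR, DESeq2, median-ratio factors, library totals, no count filter (adjusted p = 0.0483, limma-voom), only the groups compared, and without LM9 replicate 1, 2 or 3. Fosb and Junb passed in LM1KO in a fit of only the groups compared and without LM9 replicate 1.

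Reversed directions of members were few. Fosl2 log2 fold change in LM9KO against LM9 ran from -0.578 to 0.036 and averaged Atf3 from -0.035 to 0.28 over fits without 1 library, with the turned values without LM9 replicate 1. Atf3 in LM9KO against LM9 was 0.081 with library totals. In LM1KO against LM9KO, Fosb ran from -0.013 to 0.068 and Fosl2 from -0.021 to 0.0033 over such fits. The share differences ran from -1.96 to 0.21 points for Jun, -0.95 to 5.28 for Junb and -3.36 to 0.73 for Jund. Of the averaged members, Fosb alone lost its call, with library totals. With no length the averaged differences were -9.50 points for the Fos share and 1.75 for the log2 ratio of the families, and with the longest transcript -17.8 and 2.48. All 4 had the smallest exact permutation p of 0.005.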
